A study of Mus musculus with 20 samples.

Results

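Hippocampus and frontal cortex were compared in Ncs1 wild-type mice, in 10 of the 20 libraries of the series, 5 from each region. The members were taken from the sample titles, as the wild-type libraries numbered 1 to 5 of each region, and the 2 deposited tables were joined on gene symbol, which left 17148 genes listed in both. All 10 libraries were wild type on the C57Bl6/J background with no treatment named in the labels, and total RNA came from dissected tissue frozen at once. The other 10 libraries are from Ncs1-/- mice, in which the gene of neuronal calcium sensor 1 is targeted, and are used here only as a second set. The labels give no age or sex, and no label says that libraries of a region came from separate mice, so the p-values reflect the spread among these libraries, part of which may be technical. The library names in the labels carry one suffix for every cortex library and another for every hippocampus library, so region and whatever that suffix records cannot be told apart.

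The hippocampus is built from the granule cells of the dentate gyrus and the pyramidal cells of fields CA3, CA2 and CA1, joined in a largely excitatory loop that is known for its part in memory and spatial coding. The frontal cortex holds excitatory neurons in layers, upper layers that project mainly within the cortex and deep layers that project to striatum, thalamus and brainstem. Both tissues share interneurons, glia and vessels, so a bulk comparison reads both the mix of cells and the level in each cell. In these bulk samples, fewer cells of a type and less RNA per cell cannot be told apart.

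Levels are in CPM, counts scaled to a common library total after scaling with TMM, a method that matches the bulk of genes between libraries, and are given as mean ± SD over 5 libraries (n = 5) of a region. Differences are log2 fold changes of hippocampus over cortex from edgeR, so a positive value means higher in hippocampus. A gene is said to be higher or lower only where edgeR's quasi-likelihood test gave a Benjamini-Hochberg adjusted p under 0.05 over all 14849 genes tested. By that rule 5861 genes differed, 39.5% of those tested, with 2788 (18.8%) higher in hippocampus and 3073 (20.7%) lower, and the median log2 fold change over all genes was 0.01. A difference of at least 2-fold was called for 1005 genes (6.77%), 440 of them higher (2.96%) and 565 lower (3.8%). Libraries of the 2 regions did not overlap for 4347 genes (29.3%). These shares are the background for the counts of each gene group below. Depth was 17.8 to 26.7 M counts per library, and the first principal component of the log2 levels, with 75.2% of the variance, separated the regions.

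2 hippocampus libraries stood apart by the levels of genes that are also compared below. Hippocampus replicate 4 held 4.85, 18.2, 5.68, 1982 and 14.8 CPM of Ttr across replicates 1 to 5 in that order, the fourth value being its own. Ttr encodes transthyretin, the carrier protein secreted by choroid plexus. Hippocampus replicate 1 had the lowest level of the granule cell factor Prox1, with 87, 128, 164, 174 and 133 CPM in the same order. It also had the most Igfn1, a gene of cortex in these data, with 5.71, 0.77, 0.369, 1.73 and 0.769 CPM. Its summed level of dentate granule cell markers was 657 CPM, against 837 to 1048 CPM in the other 4. The tests below were repeated without these libraries. Of the 241 genes named here, 236 were called or not called as before without replicate 1, 237 without replicate 4 and 236 without both. A value is given where the call of a named gene changed or the count of a list moved by more than 1.5 times.

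The labels were checked against markers of the fields and layers. Of the 14 dentate granule cell markers tested, 10 were higher in hippocampus and 1 was lower, with a median log2 fold change of 1.09 against 0.01 for all genes. Prox1, the homeobox factor that sets granule cell identity, was at 21.4, 17, 19.5, 16.6 and 18.3 CPM in the 5 cortex libraries, and at 137 ± 34.5 CPM in hippocampus. Every hippocampus library lay above every cortex library, and the log2 fold change was 2.89 (SE 0.16). Dsp, which encodes the junction protein desmoplakin, was at 0.0562, 0.376, 0.272, 0.489 and 0.364 CPM in cortex and at 25.2, 49.6, 77.9, 85 and 58.2 CPM in hippocampus. The lowest of its hippocampus values belonged to replicate 1, which was also lowest for Prox1, and the regions did not overlap. C1ql2, a secreted synaptic organizer of mossy fibres, reached 53.3 ± 12 CPM against 1.48 ± 0.768 CPM in cortex. Tdo2, which encodes tryptophan dioxygenase, was at 4.65 ± 1.3 against 0.419 ± 0.165 CPM, and Maml2, a Notch coactivator, at 34 ± 7.4 against 12.3 ± 0.797 CPM. Calb1, the calcium buffer calbindin that marks mature granule cells, did not differ by the test, at 145 ± 9.1 against 135 ± 11.6 CPM. Plk5, a polo-like kinase, was the member that was lower, with a log2 fold change of -0.38 (SE 0.13). It did not pass with the replicate number, which may pair libraries across the regions, as a block (edgeR adjusted p 0.0505). Nor did it pass without any 1 of 6 libraries, cortex replicates 1, 2 and 5 and hippocampus replicates 1, 2 and 5.

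Markers of the pyramidal fields went the same way in most members. In the CA3 list 6 of 8 were higher and 1 was lower. Iyd, an iodotyrosine deiodinase, was at 3.58 ± 1.2 CPM in hippocampus and 0.19 ± 0.063 CPM in cortex, and the RING finger gene Rnf182 had a log2 fold change of 2.30 (SE 0.09). Coch, which encodes cochlin, was the lower one at -2.39 (SE 0.15). In the CA2 list 3 of 5 were higher, among them Amigo2, an adhesion protein, at 2.02 (SE 0.13) and Rgs14, a regulator of G-protein signalling that restrains plasticity in CA2, at 1.15 (SE 0.11). In the CA1 and subiculum list 6 of 10 were higher and 0 were lower. Fibcd1, an acetyl-group binding membrane protein, was at 163, 177, 196, 171 and 170.4 CPM in the hippocampus libraries, against a cortex range of 6.13 to 13.3 CPM. Its hippocampus values were close to one another, the groups did not overlap, and the log2 fold change was 4.08 (SE 0.14). Spink8, a serine protease inhibitor, had a log2 fold change of 4.73 (SE 0.20). Wfs1, a common CA1 marker that encodes the endoplasmic reticulum protein wolframin, did not pass at 0.08 (SE 0.17), with levels of 127, 117, 82.3, 126 and 154 CPM in cortex and 99.2, 155, 129, 98.8 and 158 CPM in hippocampus.

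**Figure D1:**
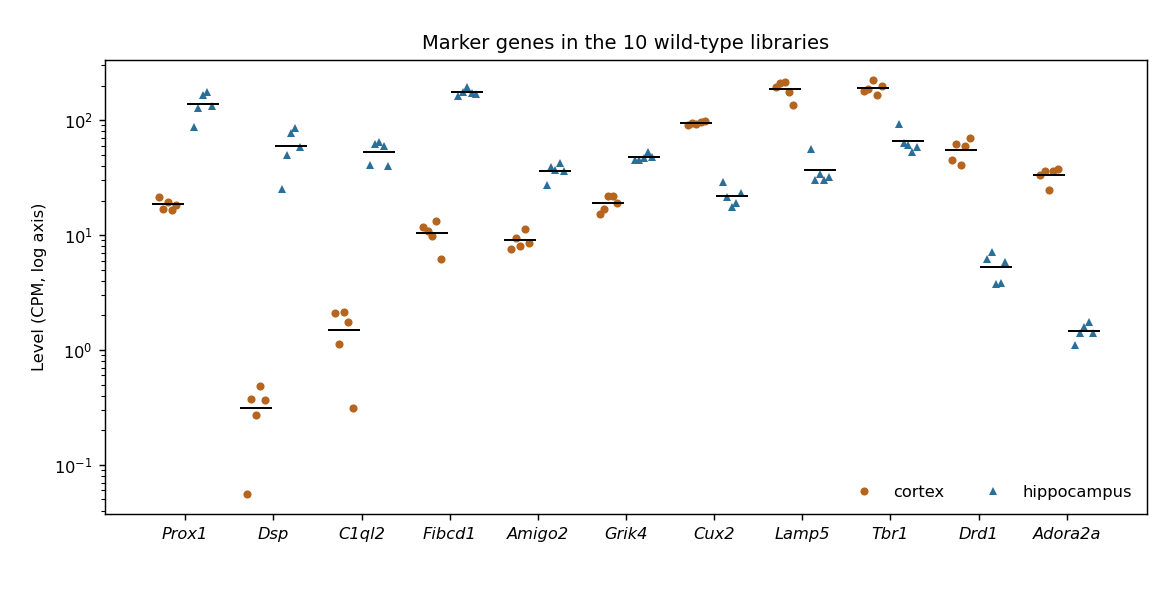
Level in each wild-type library, in CPM on a log axis, for 11 genes of hippocampal fields, cortical layers and striatal neurons, with cortex libraries as circles, hippocampus libraries as triangles and a bar at the mean of each 5. Prox1, Dsp and Fibcd1 sit higher in all 5 hippocampus libraries, and Cux2, Tbr1 and Drd1 sit higher in all 5 cortex libraries.

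Most cortical layer markers were lower in hippocampus. In the list of layers 2 to 4, 9 of 11 were lower and 2 higher, with a median log2 fold change of -1.44. Cux2, a homeobox factor of upper layers, was at 91.6, 94.1, 93.2, 95.7 and 98.5 in cortex and 28.9, 21.3, 17.4, 19 and 23.1 CPM in hippocampus. All 5 cortex values were above the highest hippocampus value, and the log2 fold change was -2.11 (SE 0.11). Lamp5, a membrane protein of layer neurons and some interneurons, was lower at -2.35 (SE 0.17). Rspo1, a Wnt agonist, had the largest difference of the list at -2.51 (SE 0.34), and -3.13 without hippocampus replicate 1. Mdga1, an adhesion protein, was higher instead at 1.64 (SE 0.14), and so was the sodium channel subunit Scnn1a at 0.71 (SE 0.17). In the list of layers 5 and 6, 11 of 15 were lower and 4 higher. The summed level of these 15 markers overlapped, at 711 to 865 CPM in cortex and 659.5 to 895 CPM in hippocampus. Hippocampus replicate 1 held the highest sum, above every cortex library. Syt6, a synaptotagmin of layer 6, was at 41.7 ± 6.77 in cortex and 9.24 ± 0.944 CPM in hippocampus, and Tbr1, the T-box factor of layer 6 identity, at 191 ± 20.9 and 65.4 ± 15.4 CPM. Crym, which encodes the thyroid hormone binding protein mu-crystallin, was higher in hippocampus, at 169 ± 9.52 against 41.4 ± 3.5 CPM. Fezf2, the zinc finger factor that specifies subcortical projection neurons, was higher at 0.68 (SE 0.14), as was Etv1, an ETS factor of layer 5, at 0.63 (SE 0.08). Tshz2, a teashirt zinc finger gene, was higher at 0.90 (SE 0.29) with hippocampus values of 225, 135, 87.1, 74.6 and 139 CPM and a cortex range of 41 to 97.1 CPM. For Tshz2 the libraries overlapped, and it did not pass without hippocampus replicate 1, at 0.62, nor without any 1 of cortex replicates 2, 4 and 5.

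Genes of neighbouring structures were present as well. All 19 tested markers of striatal projection neurons were lower in hippocampus, each at least 2-fold, with a median log2 fold change of -3.05. Their summed level was 1569.6 to 2379 CPM in cortex libraries and 416 to 466 CPM in hippocampus libraries. Drd1, the D1 dopamine receptor, was at 44.8, 62.3, 40.4, 59.7 and 69.7 in cortex and 6.14, 7.07, 3.78, 3.84 and 5.78 CPM in hippocampus. The lowest cortex value was above every hippocampus value, with a log2 fold change of -3.38 (SE 0.19). Ppp1r1b, which encodes the dopamine-regulated phosphatase inhibitor DARPP-32, was at 238 ± 34.5 in cortex and 42.6 ± 10.2 CPM in hippocampus, and the homeobox gene Six3 at 10.02 ± 3.52 and 0.30 ± 0.403 CPM. Six3 had a log2 fold change of -4.94, and -6.26 without hippocampus replicate 4. Isl1, a factor of striatonigral neurons, was at 2.6 ± 1.3 in cortex and 0.0185 ± 0.0413 CPM in hippocampus. Of 5 markers of neuromodulator cell bodies 4 were lower. The cholinergic genes Chat, Slc18a3 and Slc5a7, which make, package and retrieve the parts of acetylcholine, were among them, with Chat at 2.37 ± 1.7 in cortex and 0.0627 ± 0.0674 CPM in hippocampus. Chat and Slc18a3 share a locus and a strand, so their reads may be mixed. The part of dissected striatum in the cortex levels of genes that striatum also uses was not tested.

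Choroid plexus markers had 4 of 9 tested members higher and a median log2 fold change of 2.21, and their summed level was 208 to 3743 CPM in hippocampus and 234 to 273 CPM in cortex. The upper end came from replicate 4 alone. Hippocampus replicates 1, 2, 3 and 5 were at 209, 215, 208 and 218 CPM, below every cortex library. The median log2 fold change of this list includes replicate 4 and was not computed without it. The count depended on which members could be tested, with 11 of 16 higher with no filter, 10 of 16 under a filter at a mean of 1 CPM, 9 of 15 in the fit of all 20 libraries, 7 of 12 without cortex replicate 1 or 2 and 8 of 12 without hippocampus replicate 3. In DESeq2 2 of 16 were higher and in limma-voom 2 of 9. Without hippocampus replicate 4, the log2 fold change of Ttr was 4.27 and that of Kl, which encodes the growth factor coreceptor klotho of choroid plexus and some neurons, was 2.91, and 4 choroid plexus markers were called higher and 3 lower. The call of Ttr was lost in limma-voom, at 5.88 with an adjusted p of 0.339. Kl was at 20.1, 28.5, 34.2, 151 and 25.6 CPM in the 5 hippocampus libraries and at 2.96 to 4.33 CPM in cortex in range, so each hippocampus library was above all cortex libraries. Ependymal markers, genes of the ciliated cells that line the ventricles, were higher in 6 of 6 tested members. Foxj1, the master factor of motile cilia, was at 7.91 ± 3.44 against 4.09 ± 1.49 CPM. Without hippocampus replicate 4, 4 ependymal markers were higher and Foxj1 did not pass, at 0.74, and it also missed the threshold without cortex replicate 2 or 3. Of 13 thalamus and habenula markers, 4 were higher and 4 lower. Lhx9, a LIM homeobox factor, was at 18, 19.8, 18.7, 21.6 and 19.7 CPM in hippocampus and 0.955, 0.235, 0.0389, 0.538 and 0.572 CPM in cortex, with no overlap and a log2 fold change of 5.47 (SE 0.28). The habenula marker Gpr151 did not pass, at 0.709 ± 0.283 against 0.672 ± 0.192 CPM. Of 3 olfactory markers 1 was lower, Th, the dopamine-synthesis enzyme, at -1.87 (SE 0.24). Of 6 claustrum markers 2 were higher and 2 lower, the latter being Oprk1, the kappa opioid receptor, at -2.30 (SE 0.13) and Gnb4 at -1.38 (SE 0.05). The claustrum count of higher members was 1 without cortex replicate 2 or 3 or hippocampus replicate 3, and 3 with the replicate block or without cortex replicate 1.

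**Figure D2:**
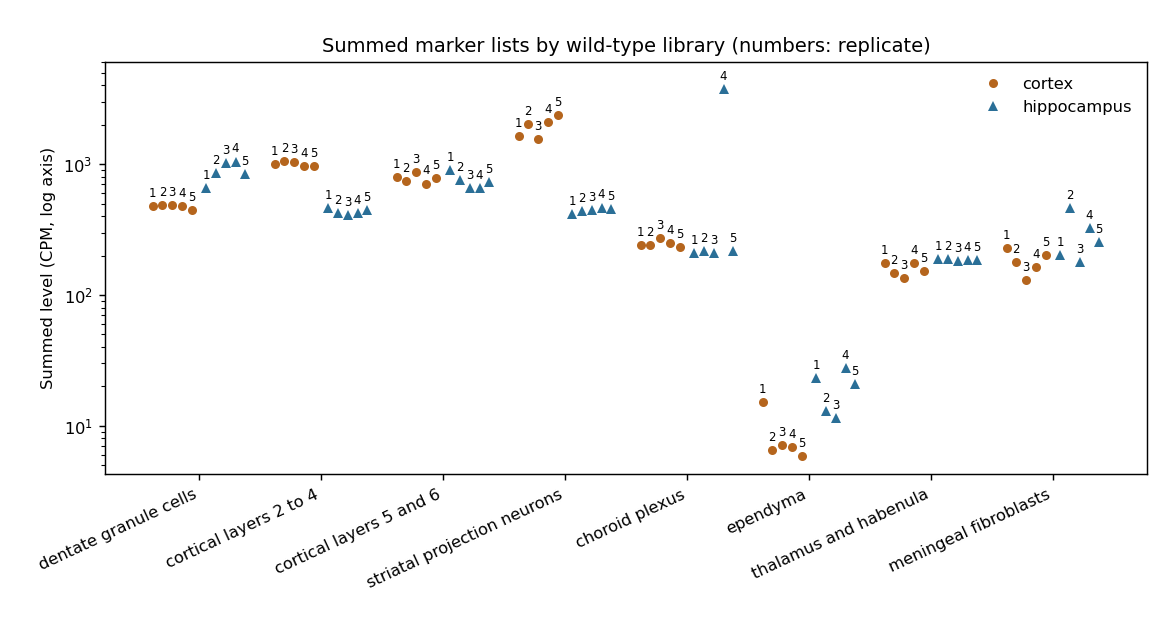
Summed level of marker lists in each wild-type library, in CPM on a log axis, cortex libraries as circles and hippocampus libraries as triangles, labelled by replicate number. Striatal markers range from 1569.6 to 2379 CPM in cortex and from 416 to 466 CPM in hippocampus, and hippocampus replicate 4 alone is far up in choroid plexus markers.

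Genes averaging 10 CPM or more whose regions did not overlap were then taken by the size of their difference and read gene by gene. Besides Ttr, Dsp, Lhx9, C1ql2, Fibcd1 and Kl, the genes higher in hippocampus were Slc9a4, a sodium-proton exchanger, at 5.64 (SE 0.14), Lct, which encodes lactase, at 4.61 (SE 0.30), the tetraspanin Tspan18 at 4.13 (SE 0.15), the interleukin precursor Il16 at 4.10 (SE 0.19), the calcium sensor Cabp7 at 3.70 (SE 0.17) and the AMPA receptor partner Shisa6 at 3.44 (SE 0.13). Slc9a4 was at 22.7, 23.1, 23.6, 25.7 and 23.1 CPM in hippocampus and 0.674, 0.47, 0.467, 0.538 and 0.208 CPM in cortex, with little spread among the hippocampus libraries. The genes lower in hippocampus included the adenosine receptor Adora2a at -4.52 (SE 0.15), the immunoglobulin and fibronectin domain gene Igfn1 at -4.21 (SE 0.43), the forkhead factor Foxp2 at -3.74 (SE 0.18), the exchange factor Rasgef1c at -3.72 (SE 0.26) and the sodium channel subunit Scn4b at -3.46 (SE 0.11). They went on with Drd2 at -3.45 (SE 0.15), Penk, the enkephalin precursor, at -3.05 (SE 0.18), the axon repellent Sema3a at -3.01 (SE 0.19), and the potassium channels Kcnh5 at -3.00 (SE 0.12) and Kcnh4 at -2.87 (SE 0.18). The 5 Igfn1 values in cortex were 33.2, 34, 31.3, 29.7 and 42.3 CPM, and without hippocampus replicate 1 its log2 fold change was -5.17. Cabp7 has Zmat5, and Shisa6 has Gm12296, on the opposite strand, and how the counting treated strand is not stated, so each pair may hold mixed reads.

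Transcription factors that pattern the forebrain split between the regions, with 13 of 38 higher and 17 lower. The higher ones held the neuronal basic helix-loop-helix factors. Neurod6 was at 237, 246, 297, 221 and 244 CPM in hippocampus and 76.5, 80.7, 97.3, 69.3 and 75.9 CPM in cortex, without overlap, a log2 fold change of 1.64 (SE 0.09). Neurod2 stood at 0.94 (SE 0.09), and Neurod1 at 1.01 (SE 0.07). Zbtb20, a repressor that hippocampal pyramidal cells need for their identity, was at 35.4 ± 10.7 CPM in hippocampus against 10.4 ± 1.94 CPM in cortex, and the orphan nuclear receptor Nr2f2 had a log2 fold change of 1.13 (SE 0.24). Its relative Nr2f1, a graded factor of cortical area identity, did not pass, at -0.03 (SE 0.10). Emx2, an area factor of medial cortex, was higher at 0.56 (SE 0.06) while Emx1 was lower at -0.80 (SE 0.12). Meis2, a homeobox factor of striatum and cortex, was lower at -1.49 (SE 0.13), and the paralogue pair Foxp1 and Foxp2 was lower at -0.60 and -3.74. The interneuron factors Dlx1 and Dlx2 did not pass, at -0.25 (SE 0.11) and -0.30 (SE 0.13), though Dlx2 passed as lower without hippocampus replicate 1 (-0.37), without cortex replicate 5 (-0.37) and with the length trend removed (-0.35), while Dlx5 and Dlx6 were lower at -0.62 and -0.84.

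Glutamate receptors differed subunit by subunit. Among AMPA receptors, the channels of fast excitation, and their auxiliary subunits 6 of 16 were higher and 8 lower. Gria1, the subunit GluA1 used in plasticity, was at 1161, 1375, 1554, 1443 and 1376 CPM in hippocampus and 456, 468, 450.5, 458 and 451 CPM in cortex. The lowest hippocampus value lay more than 2-fold above the highest cortex value, and the log2 fold change was 1.6 (SE 0.06). Gria2, which makes the channel impermeable to calcium, was higher at 0.39 (SE 0.06), and Gria3 and Gria4 were lower at -0.35 (SE 0.06) and -0.85 (SE 0.06). The auxiliary subunits parted in the same way. Higher were Shisa6, which keeps receptors at the synapse, at 223 ± 39.8 against 20.5 ± 1.94 CPM, Cnih2, a cornichon that slows deactivation, at 1.35 (SE 0.08), and Cacng8, the TARP gamma-8, at 1.15 (SE 0.09). Lower were Gsg1l, a negative modulator, at -1.89 (SE 0.10), Cacng3 at -1.03 (SE 0.09), Cacng4 at -0.75 (SE 0.08) and Cacng2, which encodes stargazin, at -0.44 (SE 0.06).

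NMDA receptors, the calcium-permeable coincidence detectors, were nearly level, and 1 of 6 tested subunits differed. That one was Grin2a, at 617 ± 117 against 414 ± 54 CPM and a log2 fold change of 0.58 (SE 0.13), while the obligatory subunit Grin1 had 0.01 (SE 0.06) and the juvenile subunit Grin2b 0.26 (SE 0.14). Without hippocampus replicate 1, Grin2b passed as higher, at 0.38. Of 7 kainate receptor genes, 3 were higher and 2 lower. Grik4, the high-affinity subunit of mossy fibre synapses, was at 47.7 ± 3.16 against 18.9 ± 2.9 CPM, and Grik3 went the other way at -1.21 (SE 0.09). The auxiliary proteins did likewise, with Neto1 at 0.49 (SE 0.07) and Neto2 at -0.52 (SE 0.04). Among metabotropic receptors and their Homer scaffolds 5 of 10 were higher, including the group I receptor Grm5 at 0.38 (SE 0.05), and 4 lower, including the presynaptic receptors Grm4 at -1.24 (SE 0.11) and Grm8 at -1.18 (SE 0.11). Homer3 was at 37.4, 39.7, 53.7, 44.7 and 42.2 CPM in hippocampus and 4.38, 5.17, 4.94, 4.59 and 4.57 CPM in cortex, with no overlap and a log2 fold change of 3.20 (SE 0.10). Homer1, whose short form is induced by activity, was lower at -0.87 (SE 0.08), so the 2 scaffolds went in opposite directions.

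All 13 tested subunits of GABA-A receptors, the chloride channels of fast inhibition, differed, 4 higher and 9 lower. Gabra5, whose receptors lie mostly outside synapses and give tonic inhibition in CA1, was at 186, 228, 257, 214 and 221 CPM in hippocampus and 63.2, 54.8, 66.4, 53.1 and 55.9 CPM in cortex. The lowest hippocampus library was above all cortex libraries, and the log2 fold change was 1.92 (SE 0.09). Gabra2 was higher at 0.93 (SE 0.15), and Gabrb1 at 0.38 (SE 0.09). Gabrd, the delta subunit of extrasynaptic receptors, was lower, at 47.5, 58.3, 54.3, 49.4 and 39.9 in cortex and 19.6, 17.1, 17.8, 12.5 and 12.3 CPM in hippocampus. Its groups did not overlap either, and its log2 fold change was -1.66 (SE 0.14). Gabra3 was lower at -1.06 (SE 0.09) and the synaptic subunit Gabrb2 at -0.58 (SE 0.04).

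**Figure D3:**
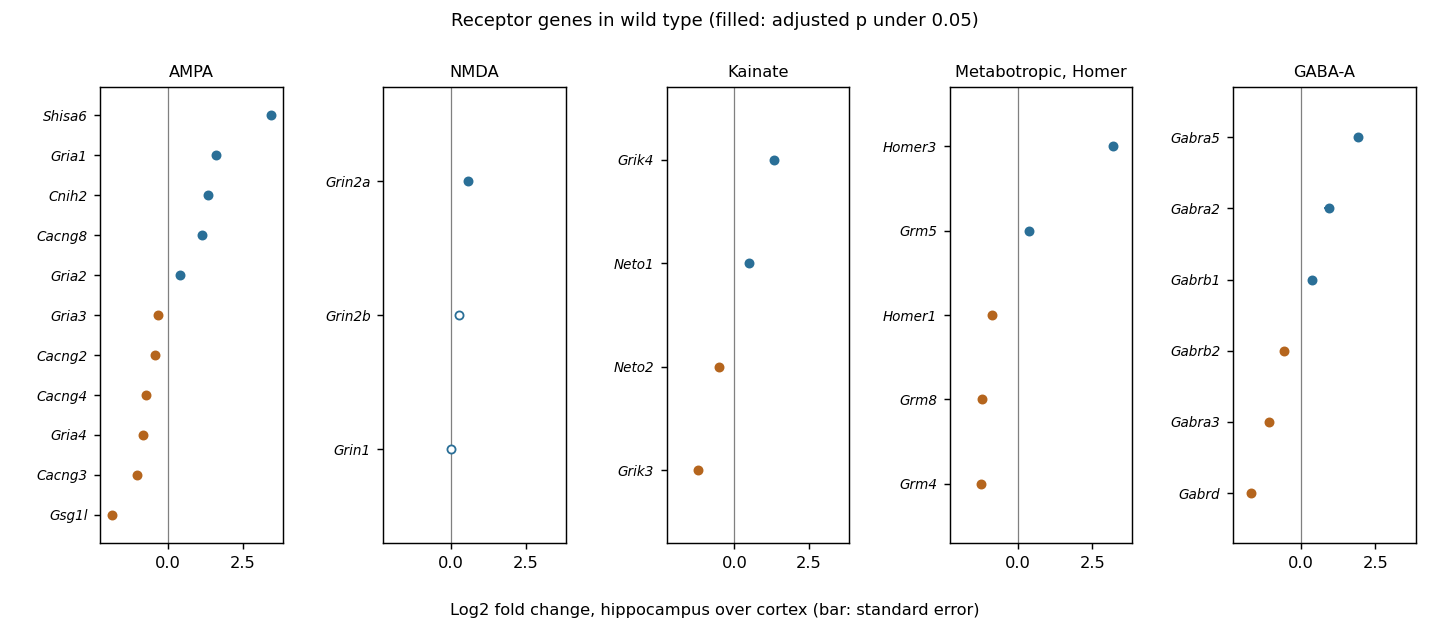
Log2 fold change of hippocampus over cortex with its standard error as a bar (mostly shorter than the point), for the AMPA, NMDA, kainate, metabotropic glutamate and GABA-A receptor genes named in the text, filled where the adjusted p was under 0.05. Gria1, Shisa6, Grik4, Homer3 and Gabra5 lie to the right of 0 and Gsg1l, Grik3, Gabrd and Gabra3 to the left.

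Interneuron markers did not move together. Of 22 tested, 9 were higher and 8 lower, with a median log2 fold change of 0.03. The enzymes that make GABA, Gad1 and Gad2, were lower at -0.23 (SE 0.06) and -0.53 (SE 0.10), and so was the vesicular transporter Slc32a1 at -0.69 (SE 0.09). The peptide genes Vip and Npy were lower at -0.99 (SE 0.15) and -0.93 (SE 0.07), the fast-spiking marker Pvalb was lower at -0.63 (SE 0.12), and Sst did not pass at 0.08 (SE 0.07). Calb2, which encodes calretinin, was higher at 1.44 (SE 0.20), as was Nos1, the neuronal nitric oxide synthase, at 1.02 (SE 0.09). Striatal neurons also use Gad1, Gad2 and Slc32a1, and the share of the difference that comes with striatal markers was not tested. Of 16 neuropeptide genes 10 were lower and 2 higher. The lower ones included Trh, thyrotropin-releasing hormone, at -3.58 (SE 0.65) (-4.34 without hippocampus replicate 1), Crh, the stress hormone, at -1.80 (SE 0.26), Cartpt at -2.20 (SE 0.21) and Adcyap1, which encodes PACAP, at -1.10 (SE 0.22). Grp, the gastrin-releasing peptide, was higher, at 16.7, 16.8, 10.2, 11.3 and 13.5 CPM in hippocampus and 4.16, 3.1, 4.28, 1.66 and 1.25 CPM in cortex, without overlap, a log2 fold change of 2.23 (SE 0.27).

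Receptors for monoamines and acetylcholine, the slow modulators of both regions, differed in 21 members. Of 27 tested, 8 were higher and 13 lower, and 7 and 8 of these were at least 2-fold. Among serotonin receptors, the inhibitory Htr1a was at 43.2, 50.8, 57.1, 52.3 and 52.5 CPM in hippocampus and 25.5, 23.5, 22.5, 25.3 and 17.6 CPM in cortex. The excitatory Htr2a was at 7.15, 11.3, 9.74, 10.9 and 10.5 CPM in hippocampus and 21.4, 33.4, 38.7, 33.9 and 43.4 CPM in cortex. The groups did not overlap for either gene, and the log2 fold changes were opposite, 1.16 (SE 0.10) and -1.79 (SE 0.17). Htr4, which raises cyclic AMP, was higher at 2.38 (SE 0.20), Htr5b at 3.28 (SE 0.25) and the ion channel Htr3a at 1.11 (SE 0.14), while Htr1d was lower at -3.90 (SE 0.37) and Htr1b at -0.69 (SE 0.14). Drd5, the other D1-type dopamine receptor, was higher at 2.52 (SE 0.17), unlike Drd1 at -3.38. Among adrenergic receptors Adra1d was higher at 1.04 (SE 0.08), and Adra1a, Adra1b and Adrb1 were lower at -1.07, -2.57 and -0.91. Among muscarinic receptors Chrm5 was higher, at 3.36 ± 0.712 against 0.446 ± 0.228 CPM, Chrm1 was higher at 0.27 (SE 0.06), and Chrm2 was lower at -1.49 (SE 0.14).

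Potassium channels, which set excitability and repolarize the membrane, were mostly lower in hippocampus. Of 43 tested 29 were lower and 7 higher, with a median log2 fold change of -0.38, and 11 of the lower ones and 0 of the higher ones reached 2-fold. The 5 ether-a-go-go genes in this list were lower, and other members of that family were not in the list. Kcnh4 was at -2.87, and Kcnh5 at 4.6 ± 0.597 CPM in hippocampus against 37 ± 5.58 CPM in cortex. Kcnh7 was at -2.19 (SE 0.14), Kcnh1 at -1.16 (SE 0.08) and Kcnh3 at -0.95 (SE 0.06). The sodium-activated channel Kcnt1 was lower at -1.53 (SE 0.12) and the axonal Kcna2 at -0.75 (SE 0.06). The A-type channel complex parted within itself. Its pore subunits Kcnd2 and Kcnd3 were higher at 0.26 (SE 0.07) and 0.35 (SE 0.06), and of its 2 auxiliary peptidase-like proteins Dpp6 was higher at 0.69 (SE 0.05) and Dpp10 lower at -1.72 (SE 0.14). Of the KChIP subunits, calcium sensors bound to that channel, Kcnip2 was higher at 0.40 (SE 0.07) and Kcnip3, Kcnip1 and Kcnip4 lower at -0.59, -0.35 and -0.22, the last not without hippocampus replicate 2. Kcnn2, the calcium-activated SK2 channel, was higher at 0.90 (SE 0.09).

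In the sodium and HCN channel list 2 of 12 were higher and 7 lower. Scn3b, an auxiliary beta subunit, was at 270.1, 339.8, 407, 356 and 359 CPM in hippocampus and 153, 147, 132, 149 and 147 CPM in cortex. All hippocampus values were higher than all cortex values, with a log2 fold change of 1.25 (SE 0.09). Scn4b, a beta subunit that striatal neurons also use, was at 278 ± 37.4 in cortex and 25.2 ± 3.63 CPM in hippocampus. Scn1a, the pore subunit of fast-spiking cells, was lower at -0.94 (SE 0.06), the pacemaker channel Hcn4 at -1.72 (SE 0.14), and Scn8a did not pass at -0.09 (SE 0.08). Of 16 calcium channel subunits 3 were higher and 8 lower. The T-type channels went opposite ways, with Cacna1h higher at 1.05 (SE 0.13) and Cacna1g and Cacna1i lower at -0.71 (SE 0.07) and -0.72 (SE 0.06). Cacnb4 was the beta subunit with the largest difference, lower at -1.21 (SE 0.06).

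Calcium buffers, sensors and calmodulin targets differed in 11 members upward and 15 downward of 30. Ncs1 itself, the gene targeted in the knockout, was at 428, 435, 465, 432 and 424 CPM in hippocampus and 384, 350.1, 368, 389 and 352 CPM in cortex, a log2 fold change of 0.25 (SE 0.04), with every hippocampus library above every cortex library. It lies on chromosome 2 from 31245923 to 31295472 in build mm10. Of its relatives Hpca, hippocalcin, was higher at 1.36 (SE 0.10), and Vsnl1, Ncald and Hpcal4 were lower at -0.49 (SE 0.09), -0.40 (SE 0.06) and -0.16 (SE 0.04). Cabp7, a Golgi calcium-binding protein, was at 275 ± 40.6 CPM in hippocampus against 21.2 ± 6.19 CPM in cortex, and Cabp1 went the other way at -1.16 (SE 0.09). The kinases that calmodulin activates were split by isoform. Camk2a and Camk2b, the neuronal forms that make up the synaptic holoenzyme, were higher at 0.28 (SE 0.06) and 0.64 (SE 0.08), and Camk2d and Camk2g were lower at -1.38 (SE 0.17) and -0.78 (SE 0.06). Camk4, the nuclear kinase, was lower at -1.18 (SE 0.07) and its activator Camkk2 at -1.27 (SE 0.06), while the other activator Camkk1 was higher at 0.37 (SE 0.06). Pcp4, a calmodulin regulator also used in striatum, was lower at -1.70 (SE 0.07).

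Second messenger enzymes differed by isoform too, with 5 of 22 higher and 12 lower. All 5 higher members were kinases or a cyclase, among them the protein kinase C genes Prkca at 0.54 (SE 0.10) and Prkce at 0.53 (SE 0.06). Prkcb was lower at -0.33 (SE 0.05). The phosphodiesterases that passed were lower, among them Pde7b at -1.80 (SE 0.08), Pde1b at -1.28 (SE 0.08) and Pde10a at -1.56 (SE 0.17), the last a standard marker of striatal neurons. Plcb4, a phospholipase C of receptor signalling, was at 72.3, 89.9, 107, 88.1 and 87.9 in cortex and 29.4, 20.7, 21, 20.9 and 21.8 CPM in hippocampus. The groups did not overlap, hippocampus replicate 1 was the highest of its group, and the log2 fold change was -1.97 (SE 0.11).

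The vesicle release machinery was mostly lower in hippocampus, with 22 of 28 lower, 4 higher and a median log2 fold change of -0.41. Rims3, a short active zone protein, was at 314, 294, 319.6, 292 and 262 in cortex and 122, 63.7, 51.7, 53.2 and 68 CPM in hippocampus. Here too hippocampus replicate 1 was the highest of its group but below all cortex libraries, and the log2 fold change was -2.05 (SE 0.20). Stx1a, a syntaxin of the fusion complex, was at 216 ± 18 in cortex and 75.3 ± 14.4 CPM in hippocampus. The priming factor Unc13c was lower at -1.54 (SE 0.20), as was the fast calcium sensor Syt2 at -1.27 (SE 0.11). Snap25 was lower at -0.47 (SE 0.06) and Vamp2, its partner on the vesicle, did not pass at 0.00 (SE 0.04). The 4 higher genes were Doc2b, Syn2, Cplx2 and Syp. Doc2b, a high-affinity calcium sensor of vesicle release, was at 160.3 ± 27.9 CPM in hippocampus against 46.7 ± 10.1 CPM in cortex. Syn2 was at 0.55 (SE 0.05), Cplx2 at 0.23 (SE 0.05) and Syp, a vesicle membrane protein, at 0.14 (SE 0.05). Syp did not pass without any 1 of cortex replicates 2, 4 and 5 and hippocampus replicates 1 and 3. Doc2a, the relative of Doc2b, was lower at -1.11 (SE 0.12). Pan-neuronal genes were also lower more often than higher, 8 against 3 of 15, but with smaller differences, such as -0.32 (SE 0.05) for the nuclear marker Rbfox3 and -0.18 (SE 0.05) for Map2, which did not pass once the trend with exonic length was removed (-0.06). Slc17a7, the vesicular glutamate transporter, did not pass at 0.09 (SE 0.05).

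Synaptic organizers, proteins that align the sides of a synapse, were divided, 10 of 28 higher and 11 lower. C1ql3, a paralogue of C1ql2, was present in both regions at 273 ± 26.2 and 228 ± 22.7 CPM and was higher at 0.26 (SE 0.08) (0.21 and not called with the length trend removed), a far smaller difference than the 5.14 of C1ql2. Of the leucine-rich LRRTM proteins Lrrtm1 was higher at 1.16 (SE 0.07) and Lrrtm3 lower at -1.27 (SE 0.06). The cerebellin Cbln2 was lower at -1.86 (SE 0.20), and the pentraxins Nptx1 and Nptx2 went apart, at 0.62 (SE 0.07) and -1.05 (SE 0.17). The neurexins Nrxn2 and Nrxn3 were lower at -0.37 (SE 0.04) and -0.35 (SE 0.07).

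Axon guidance genes, which steer growing axons and later act at synapses, differed in 42 of 45, 23 higher and 19 lower. Slit1, a repellent, was at 129, 151, 178, 190.0 and 182 CPM in hippocampus and 42.9, 39.4, 45.1, 38.6 and 46.8 CPM in cortex, with no overlap and a log2 fold change of 1.96 (SE 0.10). Its receptor Robo1 was higher at 0.48 (SE 0.09) while Robo2 was lower at -0.58 (SE 0.09). The neuropilins that receive class 3 semaphorins were both higher, Nrp1 at 1.96 (SE 0.07) and Nrp2 at 0.96 (SE 0.15). Among class 3 semaphorins Sema3e was higher at 1.26 (SE 0.06). Sema3a was lower, at 54.2, 46.7, 43, 42.3 and 43.6 in cortex and 8.54, 7.21, 5.59, 3.72 and 3.76 CPM in hippocampus. No hippocampus library came near the cortex range of Sema3a. Plxnd1, the plexin that binds Sema3e, was lower at -1.83 (SE 0.08). The ephrin receptors Epha4, Epha6 and Epha7 were higher at 0.78 (SE 0.09), 1.19 (SE 0.17) and 0.90 (SE 0.14), and the ligand Efna5 was lower at -1.84 (SE 0.16).

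Immediate early genes, the first to respond when neurons fire, were lower in 11 and higher in 2 of 26 tested. Fos was at 51, 38.3, 17.6, 11.8 and 26 in cortex and 24.7, 12.6, 7.89, 6.02 and 13.3 CPM in hippocampus, a log2 fold change of -1.17 (SE 0.41) with an edgeR adjusted p of 0.0375. Replicate 1 was the highest and replicate 4 the lowest in both regions, and in each of the 5 numbers the cortex value was above the hippocampus value, while the groups overlapped. With the replicate number as a block the log2 fold change was -1.16 with an edgeR adjusted p of 7.18e-06. The call of Fos did not hold in DESeq2, which gave an adjusted p of 0.0569, nor without any 1 of cortex replicates 1, 2 and 5 and hippocampus replicates 2 to 5, where the log2 fold change was -1.20 to -0.86. Egr1 was lower at -1.36 (SE 0.24), Egr2 at -1.72 (SE 0.43) and the phosphatase gene Dusp1 at -1.0 (SE 0.23). Arc, which acts in receptor endocytosis, was lower at -0.86 (SE 0.29), but not in limma-voom or without any 1 of cortex replicates 1, 2 and 5 and hippocampus replicates 2, 3 and 4. The 2 higher genes were Nr4a3, an orphan nuclear receptor, at 162, 145, 129.6, 123 and 161 CPM in hippocampus and 84.6, 59.995, 47.4, 28.2 and 66.4 CPM in cortex (1.33 (SE 0.21) on the log2 scale, no overlap), and Jun, the partner of Fos in AP-1, at 1.15 (SE 0.07). Bdnf, the activity-regulated neurotrophin, did not pass, at 55.9 ± 6.49 against 42.5 ± 12.7 CPM. Without cortex replicate 1 the list had 7 higher and 9 lower members, and in limma-voom and in the fit of all 20 libraries 4 and 10. The number lower was 15 without hippocampus replicate 1 and 8 without hippocampus replicate 2. With the block, 6 members were higher and 17 lower, and Bdnf was higher at 0.44 with an edgeR adjusted p of 0.00729.

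Promoters of 4 of these genes are shown because they include higher and lower genes with and without one known element, the short cyclic AMP response element TGACG, searched on both strands. In the 250 bases before the RefSeq start site, it was found in 13 of 20 immediate early genes with a window, and in 26.4% of the windows of all tested genes with one. Among the genes with a window it was in 5 of 7 that were lower, 1 of 2 that were higher and 7 of 11 that did not pass. The list had 11 lower genes in all, and Arc, Egr1 and Nptx2 were among those without a window. The sequences are from RefSeq on GRCm38.p6, 5′ to 3′ on the strand of the gene, with each match in capitals. The window of Fos, lower in hippocampus, is chr12:85473640-85473889 on the plus strand, and that of Nr4a3, higher, is chr4:48045055-48045304 on the plus strand. The window of Egr2, lower, is chr10:67535249-67535498 on the plus strand, and that of Jun, higher, is chr4:95052223-95052472 on the minus strand.
Fos: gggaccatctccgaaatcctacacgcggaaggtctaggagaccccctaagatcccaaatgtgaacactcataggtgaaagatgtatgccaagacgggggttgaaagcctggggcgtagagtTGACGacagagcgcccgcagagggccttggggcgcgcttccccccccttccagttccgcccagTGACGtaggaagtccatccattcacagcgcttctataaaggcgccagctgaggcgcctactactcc
Nr4a3: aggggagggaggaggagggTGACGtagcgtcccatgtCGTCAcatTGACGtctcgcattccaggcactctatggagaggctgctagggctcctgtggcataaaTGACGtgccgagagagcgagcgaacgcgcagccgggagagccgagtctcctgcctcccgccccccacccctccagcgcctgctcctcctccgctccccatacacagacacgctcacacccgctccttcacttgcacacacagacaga
Egr2: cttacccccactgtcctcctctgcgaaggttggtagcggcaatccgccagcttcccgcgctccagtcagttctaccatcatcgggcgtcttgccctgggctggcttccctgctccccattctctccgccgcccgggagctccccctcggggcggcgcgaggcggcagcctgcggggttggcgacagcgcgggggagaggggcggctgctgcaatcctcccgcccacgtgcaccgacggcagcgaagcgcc
Jun: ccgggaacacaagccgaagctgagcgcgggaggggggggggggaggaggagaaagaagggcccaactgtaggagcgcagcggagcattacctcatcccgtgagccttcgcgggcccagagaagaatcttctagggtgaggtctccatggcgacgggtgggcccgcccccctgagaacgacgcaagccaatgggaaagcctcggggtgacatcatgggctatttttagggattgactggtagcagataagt
Fos has 2 matches and Nr4a3 has 4, and the windows of Egr2 and Jun have none. These 4 genes were chosen so that the motif is present and absent on both sides of the comparison, which is no result. A match is a description of letters and not a site, and none says only that these letters are not in the window.

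Growth factor and stress hormone genes were compared next. Of 13 neurotrophin, neuregulin and receptor genes 4 were higher and 6 lower. Ntf3, neurotrophin 3, was at 3.98, 6.64, 6.83, 5.33 and 4.65 CPM in hippocampus and 1.35, 0.893, 0.584, 0.88 and 0.468 CPM in cortex, without overlap, a log2 fold change of 2.73 (SE 0.25). Its receptor Ntrk3 was higher at 0.38 (SE 0.06), and the Bdnf receptor Ntrk2 was lower at -0.30 (SE 0.05). Nrg1 and its receptor Erbb4 were lower at -1.56 (SE 0.12) and -0.53 (SE 0.07). The 2 receptors for corticosteroids were opposite. Nr3c2, the high-affinity mineralocorticoid receptor, was at 202, 259, 318, 289 and 236 CPM in hippocampus and 55.7, 60.3, 58.5, 60.3 and 57.8 CPM in cortex. The hippocampus values were spread more widely but all lay above cortex, with a log2 fold change of 2.15 (SE 0.10). Nr3c1, the glucocorticoid receptor, was lower at -0.51 (SE 0.06). Of 14 receptor and response genes 7 were higher, including Fkbp5, a chaperone that damps the receptor, at 0.67 (SE 0.21), though not without any 1 of cortex replicates 1, 2 and 3 and hippocampus replicates 4 and 5, and Hsd11b1, which regenerates active corticosterone, at 1.0 (SE 0.12). Another 4 were lower, including the receptor for corticotropin-releasing hormone, Crhr1, at -1.11 (SE 0.14).

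Most glial and vascular markers did not pass the test, but neither did most genes, of which 39.5% were called. The called share was 50% for 18 astrocyte and 41.7% for 12 endothelial markers, not far above that in lists so short. With each library left out in turn, 7 to 10 astrocyte and 4 to 7 endothelial markers were called. The called share was below 39.5% for oligodendrocyte (26.7%), pericyte and smooth muscle (22.2%), microglia (6.25%) and precursor markers (0%). Astrocyte markers had 6 of 18 higher and 3 lower with a median log2 fold change of 0.07. Gfap, the intermediate filament of astrocytes, was at 339, 311, 368, 302 and 390.0 CPM in hippocampus and 152, 75.8, 66.7, 90.8 and 133 CPM in cortex, without overlap, a log2 fold change of 1.73 (SE 0.20). Agt, angiotensinogen, was higher at 1.42 (SE 0.30). The glutamate transporter Slc1a2 was lower at -0.24 (SE 0.05), so astrocyte genes did not share a direction. Of 15 oligodendrocyte markers 4 were higher and 0 lower, with Mbp, myelin basic protein, at 0.50 (SE 0.10) and Mobp at 0.50 (SE 0.12), and 10 were higher with the replicate number as a block and 9 without hippocampus replicate 2. Among 9 precursor markers 0 passed, and among 16 microglia markers 1 did, Csf1r, the receptor microglia need to survive, at -0.17 (SE 0.04). With the replicate block the counts were 2 for precursors and 3 for microglia. Precursor markers numbered 1 higher without cortex replicate 1 or hippocampus replicate 1 and 2 without cortex replicate 4. Microglia markers numbered 1 higher without cortex replicate 1 and 2 without hippocampus replicate 4 or 5. Of 12 endothelial markers 5 were lower and 0 higher, including the efflux pump Abcb1a at -0.45 (SE 0.08) and the VEGF receptor Flt1 at -0.35 (SE 0.05), with 8 lower and 0 higher under the block. Of 9 pericyte and smooth muscle markers 1, Acta2, was higher at 0.51 (SE 0.19), though not without any 1 of 6 libraries, cortex replicates 1, 2, 3 and 5 and hippocampus replicates 2 and 5, and 1, Abcc9, was lower at -0.53 (SE 0.11). Meningeal fibroblast markers had 3 of 14 higher, and Dcn, the matrix proteoglycan decorin, was at 74.7, 89.3, 38.5, 67.9 and 65.1 CPM in hippocampus and 21.3, 9.92, 7.12, 9.34 and 12.7 CPM in cortex. The groups did not overlap, and the log2 fold change was 2.49 (SE 0.27). The collagens Col1a1 and Col1a2 did not pass at 0.43 (SE 0.29) and 0.05 (SE 0.27). Without hippocampus replicate 2 the meningeal list had 2 higher and 1 lower. Of 9 genes of perineuronal and other matrix 2 were higher, Tnc at 1.04 (SE 0.14) and Hapln1 at 0.48 (SE 0.05), and 1, Ncan, was lower at -0.34 (SE 0.06), and under the block 2 were higher and 3 lower. Of 10 markers of newborn neurons and progenitors 2 were higher and 1 lower. Dcx, doublecortin of young neurons, was lower at -0.85 (SE 0.08), and the proliferation marker Mki67 did not pass, at 3.02 ± 0.597 against 2.84 ± 0.578 CPM. With the block 2 were higher and 2 lower, and without hippocampus replicates 1 and 4 the counts were 1 and 1.

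**Figure D4:**
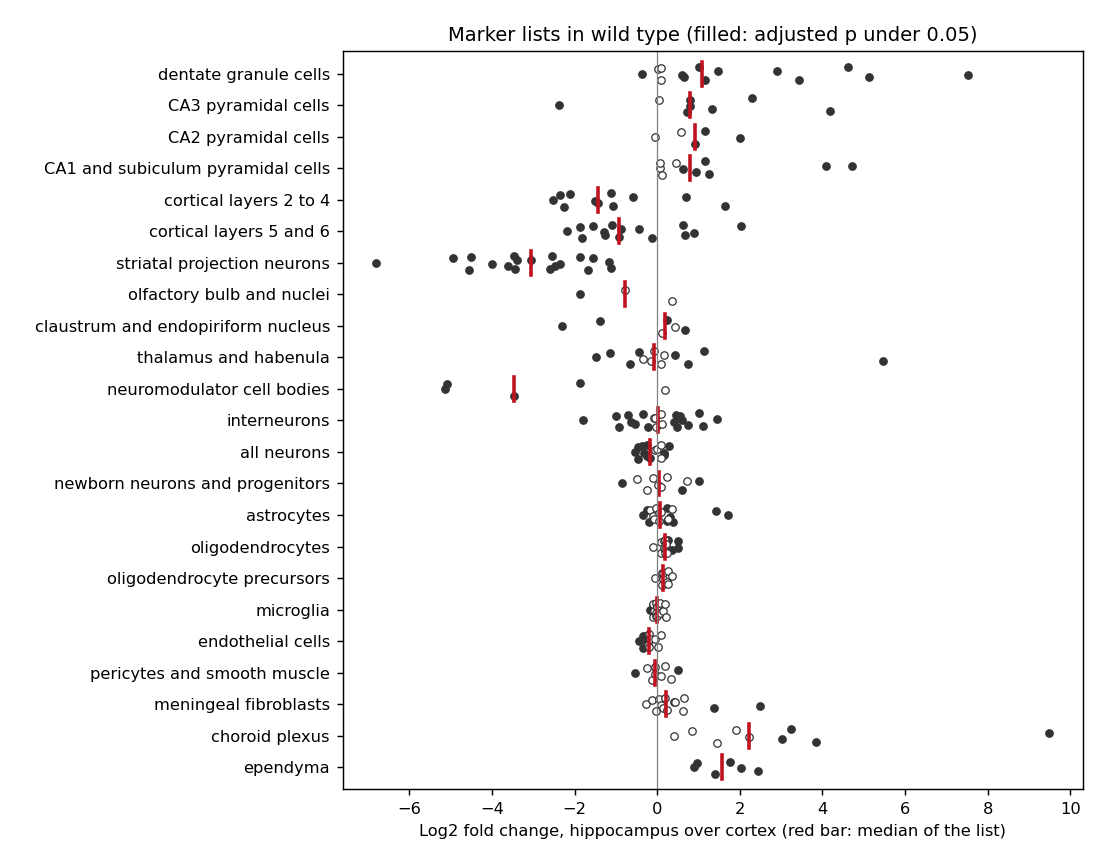
Log2 fold change of hippocampus over cortex for each tested member of 23 marker lists, 1 point a gene, filled where the adjusted p was under 0.05, with a bar at the median of the list. Striatal markers lie to the left of 0, dentate, choroid plexus and ependyma markers mostly to the right, and microglia and precursor markers close to 0. The choroid plexus values include hippocampus replicate 4, the only hippocampus library above cortex in the summed level of that list.

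Housekeeping lists were close to level. Of 62 nuclear-encoded respiratory chain subunits 8 were higher and 1 lower, with a median log2 fold change of 0.05, and of 72 cytosolic ribosomal protein genes 10 were higher and 9 lower. None of these members reached 2-fold. With the replicate block 15 respiratory chain genes were higher and 6 lower, and without hippocampus replicates 1 and 4 the counts were 4 and 1. The respiratory chain counts were 6 and 4 without hippocampus replicate 1, 6 and 2 without hippocampus replicate 3 and 6 and 3 without cortex replicate 5. The called shares of the 2 lists in the test over 10 libraries, 14.5% and 26.4%, lie under the 39.5% of all genes.

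The knockout libraries hold the same regions and share no library with the wild type. Of the 1005 genes with a difference of at least 2-fold in wild type, 987 were tested in knockout. All 987 had the same sign there and 944 were called in the same direction, where 38.8% of all 15032 genes tested in knockout were called. Prox1 had a knockout log2 fold change of 2.83, Gria1 1.55, Gabra5 1.88, Cux2 -2.06, Gabrd -1.72 and Nr3c2 2.04. Ttr, high in the wild type through 1 library, had a log2 fold change of 9.49 in wild type and 4.06 in knockout. The difference between the genotypes was tested directly with an interaction term over the 20 libraries, and 0 of 15310 genes passed with edgeR. An unadjusted p under 0.05 was found for 214, a smaller share than the 0.05 that would fall there if no gene differed. The interaction model had no block for the replicate number, so 0 passing does not show that the region differences are equal.

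**Figure D5:**
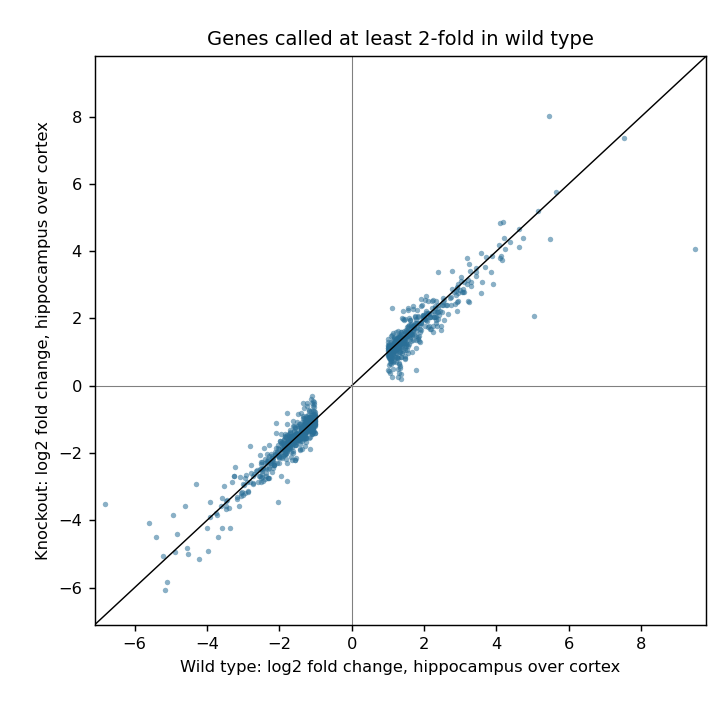
Log2 fold change of hippocampus over cortex in wild type on the x axis and in knockout on the y axis, for the genes called at least 2-fold in wild type and tested in knockout, 1 point a gene, with the line of equal values. All 987 points lie in the quadrants of equal sign.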

How the data were processed

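RNA of wild-type frontal cortex and hippocampus was compared in 10 libraries, with 10 knockout libraries as a second set. The authors deposited unscaled expected counts, with a separate table for each region. STAR 2.7.3a, Partek and build mm10 are named per the submitters' processing notes. No annotation, strand setting or filter is given in the sources used here. In the wild-type libraries 22.9% to 25.6% of values lay over 0.001 from a whole number, and the unit was read from this. The tables listed 17442 and 17586 genes and were joined on symbol. All 17148 shared genes had equal coordinates in both.

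After rounding, the counts were modelled with edgeR 4.0.16 (R 4.3.3) on the 10 libraries, with filterByExpr, TMM factors, quasi-likelihood F tests and Benjamini-Hochberg adjustment at 0.05 over 14849 genes. Standard errors are the log2 fold change over the root of F. Depth was 17.8 to 26.7 M counts per library, so 1 CPM rests on about 18 to 27 counts, and intervals between libraries include counting error. Lists are described by counts and medians and were not tested as sets. The gene groups, the members and the lists (23 of markers, 22 of functions) were chosen with earlier results of these data known. The rule for names took the 12 largest differences per direction among called genes averaging 10 CPM or more without overlap, the first 4 members of each list and its 4 largest calls per direction, the 3 most abundant genes outside the join per table, and Ncs1. Of 241 named genes 46 list members or neighbours fell outside it and were chosen after their values were seen: Adcyap1, Adra1a, Adra1d, Adrb1, Cabp1, Cacng2, Camk2b, Camk2g, Camk4, Camkk1, Chrm2, Dlx1, Dlx2, Dlx5, Dlx6, Doc2a, Dpp10, Dusp1, Epha4, Epha6, Foxp1, Gabrb2, Gpr151, Hpcal4, Htr1b, Kcna2, Kcnh1, Kcnh3, Kcnip1, Kcnip3, Kcnip4, Kcnt1, Maml2, Meis2, Ncald, Neurod2, Nr2f1, Nr2f2, Nrxn2, Nrxn3, Prkcb, Robo1, Robo2, Vamp2, Vsnl1 and Zmat5. Among the named genes, 36 overlap another gene model, so their counts are uncertain without the strand setting. Some genes the rule named are not reported here.

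Replicate numbers come from the titles. Libraries of the same number deviated together over 11510 genes (r 0.13 to 0.59, 5 of 5 pairs over 0.1). Each cortex library was closest to its own number. Hippocampus replicate 2 was closer to cortex replicate 1 (r 0.24) than to cortex replicate 2 (r 0.21). Hippocampus replicate 4 was closer to cortex replicate 5 (r 0.21) than to cortex replicate 4 (r 0.13). The labels do not state a pairing, so the numbers may pair the samples. The main test has no block. The blocked value is given where it changes the call of a named gene or moves the count of a list by over 1.5 times. No 2 libraries of a group agreed within sampling noise. In simulated counts over 14894 genes, 50 were changed at each fold. There edgeR called 12 of those changed 1.2-fold, 45 changed 1.5-fold, 49 changed 2-fold and 50 changed 4-fold. Of its 168 calls, 12 were unchanged genes. The wild-type libraries gave 5861 calls, so these values describe the simulation alone. How many differences were missed or wrongly called in the wild-type libraries was not tested. The alternatives changed the scaling factors or the tool (DESeq2 1.42.0, limma-voom with limma 3.58.1), and tried other filters, the block, all 20 libraries in 1 fit, each library left out, the hippocampus library with Ttr over 100 CPM left out, Rn45s and haemoglobin genes removed, the length trend removed and glmTreat against 1.5-fold. Leaving out hippocampus replicates 1 and 4 together was added after the data were seen.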

Additional observations from a re-analysis of the deposited data

Results flagged for a closer look

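For each of the named genes, a library was marked where its gap to the nearest other library took more than 0.71 of the whole range of its region. That was the case in 39 of 482 gene and region pairs (8.09%). The limit of 0.71 marks about 1 in 20 (5%) groups of 5 independent, normally distributed values. The named genes were selected and can vary together within a library, so the 8.09% is no test against that rate. Hippocampus replicate 1 accounted for 13 of the 39 marks. Among these it was highest for genes that were lower in hippocampus, such as Rims3, Tbr1 and Rspo1. It was lowest for Doc2b, Epha6 and Hapln1, which were higher. What this library holds beyond its label was not tested.

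Hippocampus replicate 1 was the highest of its group with 20.3 CPM for Cbln2 (others 9.20 to 11.6), 2.54 CPM for Crh (others 0.962 to 1.21), 5.71 CPM for Igfn1 (others 0.369 to 1.73) and 55.8 CPM for Lamp5 (others 29.9 to 34.2). It was also the highest with 29.4 CPM for Plcb4 (others 20.7 to 21.8), 122 CPM for Rims3 (others 51.7 to 68), 3.94 CPM for Rspo1 (others 0.930 to 1.2) and 100.1 CPM for Stx1a (others 62.7 to 72.9). The highest values it held further included 91.9 CPM for Tbr1 (others 52.4 to 63.3) and 8.64 CPM for Zmat5 (others 6.96 to 7.43). The lowest values it held further included 111 CPM for Doc2b (others 171 to 176), 36.6 CPM for Epha6 (others 65.7 to 76.3) and 46.7 CPM for Hapln1 (others 52.5 to 53.5).

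Hippocampus replicate 3 was the highest of its group with 161 CPM for Calb1 (others 139 to 142), 0.0923 CPM for Isl1 (the others at 0), 598 CPM for Ncald (others 526 to 537) and 465 CPM for Ncs1 (others 424 to 435). It was also the highest with 1596 CPM for Slc17a7 (others 1365 to 1407). The lowest values it held further included 9.69 CPM for Htr3a (others 10.6 to 11). Cortex replicate 1 was the highest of its group with 6.74 CPM for Foxj1 (others 3.24 to 3.53), 1.35 CPM for Htr5b (others 0.391 to 0.662), 55.1 CPM for Lrrtm1 (others 42.9 to 44.2) and 5.45 CPM for Scnn1a (others 2.96 to 3.58). It was also the lowest with 298 CPM for Nrxn3 (others 351 to 361). Cortex replicate 3 was the highest of its group with 352 CPM for Camk2g (others 288 to 300.2), 256 CPM for Dpp10 (others 224 to 232), 349 CPM for Epha4 (others 268 to 285) and 25.3 CPM for Grm8 (others 19.5 to 20.2).

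Cortex replicate 4 was the highest of its group with 53.2 CPM for Abcb1a (others 41.3 to 43.1), 472 CPM for Gad1 (others 375 to 401), 23 CPM for Kcnip1 (others 18.7 to 19.5) and 4.01 CPM for Slc18a3 (others 0.988 to 1.27). It was also the lowest with 13.8 CPM for Adcyap1 (others 21.6 to 24.6). Hippocampus replicate 4 was the highest of its group with 151 CPM for Kl (others 20.1 to 34.2), 0.997 CPM for Six3 (others 0 to 0.277) and 1982 CPM for Ttr (others 4.85 to 18.2). Cortex replicate 5 was the highest of its group with 37 CPM for Epha6 (others 24.2 to 25.8) and 46.7 CPM for Kcnh5 (others 32.8 to 36). Hippocampus replicate 5 was the highest of its group with 59.7 CPM for Cacna1g (others 49.5 to 51.8).

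Genes listed in the table of 1 region alone were outside the comparison, and the 3 with the highest wild-type level per region were looked at. In cortex these were Serpina9 at 4.12 ± 1.24 CPM, Gm10635 at 3.57 ± 1.22 CPM and Tfap2d at 2.72 ± 0.898 CPM. In hippocampus they were Pla2g2f at 1.78 ± 0.704 CPM, Sult5a1 at 1.02 ± 0.281 CPM and Dmrt3 at 1.01 ± 0.467 CPM. These levels are deposited counts scaled to CPM over all listed genes (SD, n = 5), and no value of the other region was used here.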

How the results depend on the processing

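The count of 5861 genes that differed was 5352 to 5786 when each library was left out in turn, 2518 to 2819 for higher and 2752 to 3046 for lower genes. Under the other alternatives except glmTreat it was 5113 to 6629. With the replicate block it was 6629, with 3172 higher and 3457 lower, and among named genes the block changed the calls of Plk5 and Bdnf and no other. Against a fold of 1.5 in glmTreat, 1131 genes passed, 468 higher and 663 lower. With total counts and no factors 3168 were higher and 2741 lower, against 2788 and 3073 with TMM, and without a filter 3022 and 2979. Of 224 named genes called, 212 kept call and sign in every alternative but glmTreat, where 141 were called, and 12 lost the call in at least 1, while 3 that were not called gained it. Acta2 also lost its call in limma-voom, with all 20 libraries and with the length trend removed, and Map2 with all 20 libraries. Bdnf also gained one in limma-voom, with all 20 libraries and without cortex replicate 1, and Grin2b with the length trend removed. No called value changed sign. Counts of short lists moved by over 1.5 times elsewhere too. In the fit of all 20 libraries lower thalamus and habenula markers went from 4 to 2, lower ribosomal protein genes from 9 to 5 and higher precursor markers from 0 to 1. With the length trend removed 7 respiratory chain genes were lower and 1 precursor marker higher. Higher microglia markers numbered 1 or 2 in 9 settings that kept all libraries. A filter at 1 CPM left 2 olfactory markers, 0 called, and 2 of 2 neuromodulator markers lower, and DESeq2 called 2 of 5 olfactory markers. Without hippocampus replicates 1 and 4 both, 2 pericyte and smooth muscle markers were higher. Depth limits the low genes: under 1 CPM a library of 20 M counts holds fewer than 20 reads of a gene. Region and the suffix of the library names cannot be told apart in any of these settings.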
